A study of Sus scrofa with 36 samples.

Results

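Long-span circRNAs were defined as circular RNAs whose back-splice junction joins positions more than 50000 bases apart on a numbered pig chromosome, with at least 3 back-spliced reads over all libraries and a count in at most 27 of the 36 libraries. The rule was met by 1303 circRNAs of 48111 in all (2.71%), and they held 17725 of 883850 back-spliced reads (2.01%). Span, total reads and number of libraries chose the members, so these 3 measures are given below as a description, without a test.

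A circRNA forms when the spliceosome joins the end of a downstream exon back to the start of an upstream exon, and a read across that junction is the evidence counted here. The span of a junction is the genomic distance between its outer ends, introns included. It is not the length of the circle, because internal introns are usually removed, and a long span is commonly found in genes with long introns. RNase R degrades linear RNA from its free end and is used to enrich circles.

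Hearts of Yorkshire pigs of both sexes were taken on postnatal day 1 (P1), 3 (P3), 7 (P7) or 28 (P28), with 6 pigs at each age and no treatment. The libraries came in 3 batches of 12, with 3 libraries per age in each. Batches nv1 (RNase R treated) and nv2 (total RNA) were made at Novogene in different rounds from the same 12 pigs, and batch cd (total RNA) was made at CD Genomics from 12 other pigs. Batch nv2 came from new samples of these animals, so RNase R, heart sample, sequencing round and library preparation cannot be told apart between nv1 and nv2, nor can company and pigs between cd and the others. The tissue was whole heart, so fewer cells of a type and less circRNA per cell cannot be told apart.

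Libraries held from 8636 to 65478 back-spliced reads, except the nv1 library of Novogene pig 1 at P28 with 1604 reads. That pig was left out of the ranges and tests below. In 5 cd libraries, 2 of P3, 1 of P7 and 2 of P28, fewer than 20% of the detected junctions had a count of 1. Reads per detected long-span junction averaged 7.82 ± 3.26 (SD, n = 5) in these libraries and 2.64 ± 0.69 (SD, n = 7) in the other cd libraries. In the gene table of the cd libraries, 5 of the 7 heart muscle markers looked up were listed, each at 8398 or more CPM (counts per 1000000 counted reads) in every library. Of the other lists, 2 of 5 leukocyte genes were in the table, CD79A (402 to 638 CPM) and SPI1 (23.9 to 50.2 CPM), and 2 of 3 endothelial genes, CDH5 (141 to 433 CPM) and TEK (142 to 338 CPM). Of 4 skeletal muscle genes, 1 was listed, CKM (2666 to 13025 CPM), which encodes a creatine kinase that heart muscle also expresses.

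Spans ran from 50019 to 346559 bases with a median of 71473, and 368 lay between 50000 and 60000 bases while 36 exceeded 200000. A member had a median of 6 reads in 3 libraries, 276 had exactly 3 reads, and 13 had 100 or more. The median number of reads lay between 5.5 and 7.5 in all 6 span classes examined, within totals that the rule bounds on both sides. Members with a count in 1 library numbered 245 (18.8%), against 16.5% of the 22682 circRNAs of up to 50000 bases that met the same limits on reads and libraries, called shorter circRNAs below. Of these 245, 128 were found in a cd library, and 72 of the 128 in the 5 cd libraries with few junctions at a count of 1.

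The limits of the rule cut through a continuous range. The members nearest to the span limit were chr15:34770887-34820906 (50019 bases) and chr5:76330930-76381045 (50115 bases), and the nearest circRNAs outside it were chr1:241875288-241925272 (49984 bases) and chr10:18149843-18199788 (49945 bases). By number of libraries, chr1:38556809-38611471 (27 libraries, 94 reads) was just inside, and chr18:52318954-52369658 (28 libraries, 169 reads) was just outside. The library limit removed 35 circRNAs, which held 11963 reads with a median of 263 each, and the read limit removed 1524 with 1 or 2 reads. The members are therefore neither the most abundant nor the rarest of the long junctions. Coordinates are of Sscrofa10.2, with starts as deposited. The files pair no junction with a gene and no annotation of this build was used, so host genes are not named.

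**Figure D1:**
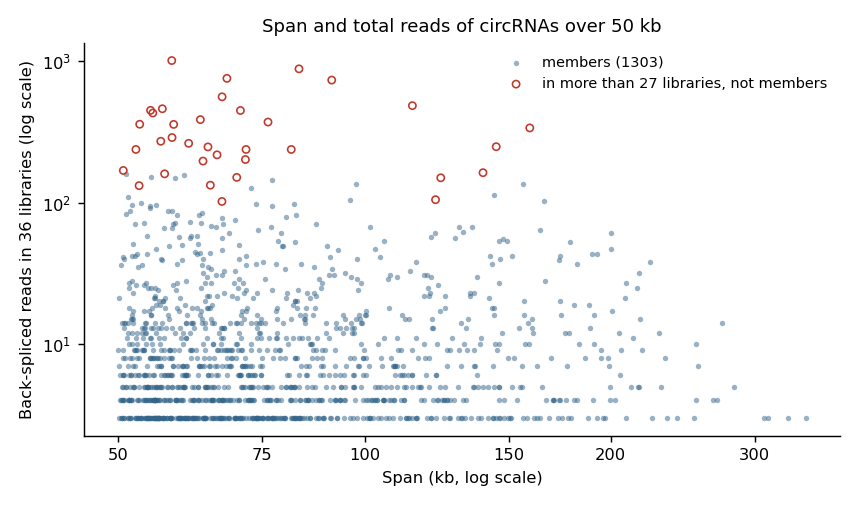
Each filled point is a long-span circRNA and each open point 1 of the 35 circRNAs removed by the library limit, with span in kilobases on the x axis and its total back-spliced reads over 36 libraries on the y axis, both on log scales. Spans reach 346559 bases, and in both sets high and low read totals occur across most of the range.

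Positions of long-span junctions were shared. A start position was shared with at least 1 other circRNA by 78.2% of the members and 54.7% of the shorter circRNAs, and an end position by 79.6% and 55.0%. Both ends were shared by 63.8% of the members, against 32.8% of the shorter circRNAs. The gap was also present among circRNAs with exactly 3 reads, where both ends were shared by 54.0% of 276 members and 22.0% of 4185 shorter circRNAs. For 1070 members (82.1%), an end was shared with a circRNA of up to 50000 bases, in any number of libraries. That partner, the one with the most reads where there were several, had more reads than the member in 909 cases, and the median ratio of partner to member was 7. Taking the highest partner, and limiting the libraries of members alone, favors the partner, so these values are a description. No member had a junction on the opposite strand within 5 bases at both ends (0 of 1303).

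Overlapping members on the same strand formed 512 loci. A lone member made up 261 of them, while 80 loci with 5 or more members held 595 members (45.7%). The richest locus, chr14:57582639-57935212 on the minus strand, held 33 members built from 24 starts and 17 ends, with 346 reads. Inside it lay 179 circRNAs that were not members, with at least 3 reads each and 17137 reads in all. Such circRNAs had up to 50000 bases or were removed by the library limit. In contrast, the locus at chr9:77414304-77816417 on the plus strand held 16 members with 254 reads, but only 3 such circRNAs with 202 reads. Next was chr8:39516210-39748311 on the minus strand, with 16 members and 216 reads, in which 38 such circRNAs had 3270 reads. In 458 loci (89.5%) at least 1 of them lay inside. The chr14 locus had 1056 CPM (counts per 1000000 back-spliced reads of the batch) in nv2, 181 CPM in nv1 and 306 CPM in cd, whereas the chr9 locus had 395, 288 and 254 CPM.

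Members were found on all 18 numbered chromosomes. They made up 8.62% of the circRNAs with at least 3 reads on chromosome 18, 8.52% on chromosome 10 and 2.52% on chromosome 17, where the share was lowest. The plus strand carried 738 members (56.6%), against 50.5% of the shorter circRNAs.

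The 10 members with the most reads had 110 to 160 reads each. Most abundant was chr8:146890663-146941701, with 160 reads in 25 libraries. Some of them shared a position or lay end to end. On chr10, the junctions 20623985-20682708 (150 reads) and 20623985-20701149 (145 reads) began at the same base. On chr9, 82842512-82893921 (110 reads) ended just past the start of 82893805-83049946 (136 reads). Reads of single members were uneven between libraries, and 45 of the 136 reads of chr10:46681559-46779066 came from 1 cd library of P3, which is among the 5 with few junctions at a count of 1. The longest member, chr2:48219350-48565909 with 346559 bases, had 3 reads in 2 libraries.

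**Figure D2:**
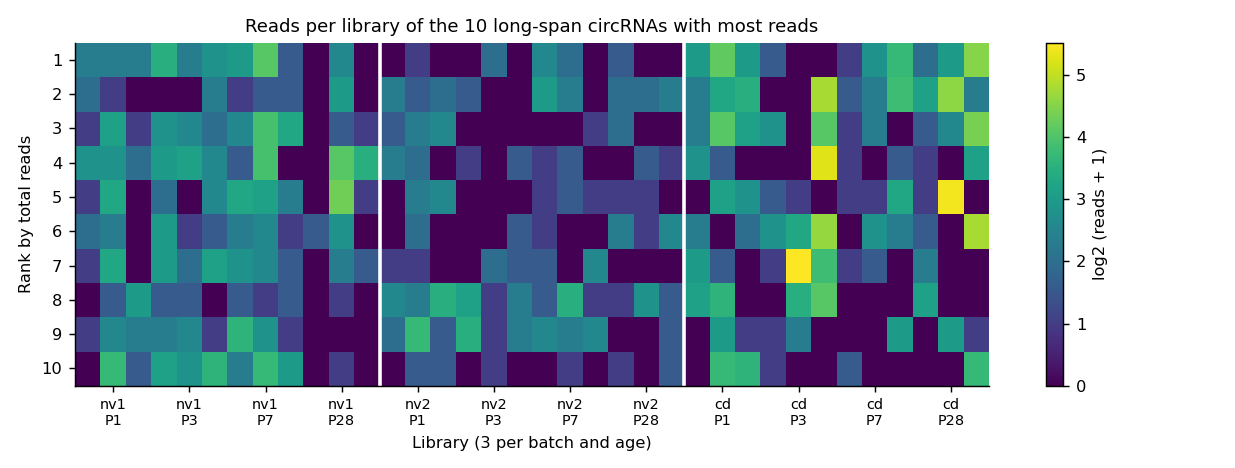
Counts of the 10 long-span circRNAs with the most reads in the 36 libraries, grouped by batch and age, with color for log2 of the count plus 1 and rows in order of total reads. The highest counts, up to 45, are in cd libraries.

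The share of back-spliced reads on long-span circRNAs was higher in nv2 than in nv1. It ranged from 1.25% to 2.02% (median 1.62%) in the 11 nv1 libraries, from 2.44% to 2.99% (median 2.61%) in the 11 nv2 libraries and from 1.49% to 2.33% (median 2.08%) in the 12 cd libraries. The nv1 and nv2 ranges did not overlap, and cd overlapped nv1, reached into the gap and stayed below nv2. The lowest nv1 share was 1.25% (Wilson 95% interval 1.08 to 1.43%) and the lowest nv2 share 2.44% (2.17 to 2.75%). Such intervals cover counting error only, since reads carry no molecular identifiers. Because shares of a library sum to 100%, a lower share of long-span reads cannot be told apart from a higher share of other reads.

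Within pigs the direction was the same throughout. All 11 pigs had a lower share in nv1 than in nv2, by 1.03 ± 0.32 percentage points on average (SD, n = 11), and the ratio of nv1 to nv2 ran from 0.446 to 0.745 with a median of 0.599. At P1 the ratios were 0.599, 0.594 and 0.446, and at P3 they were 0.659, 0.590 and 0.664. At P7 they were 0.732, 0.745 and 0.522, and in the pair of P28 pigs 0.732 and 0.466. No test was made, because the members were chosen with results of these libraries known.

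**Figure D3:**
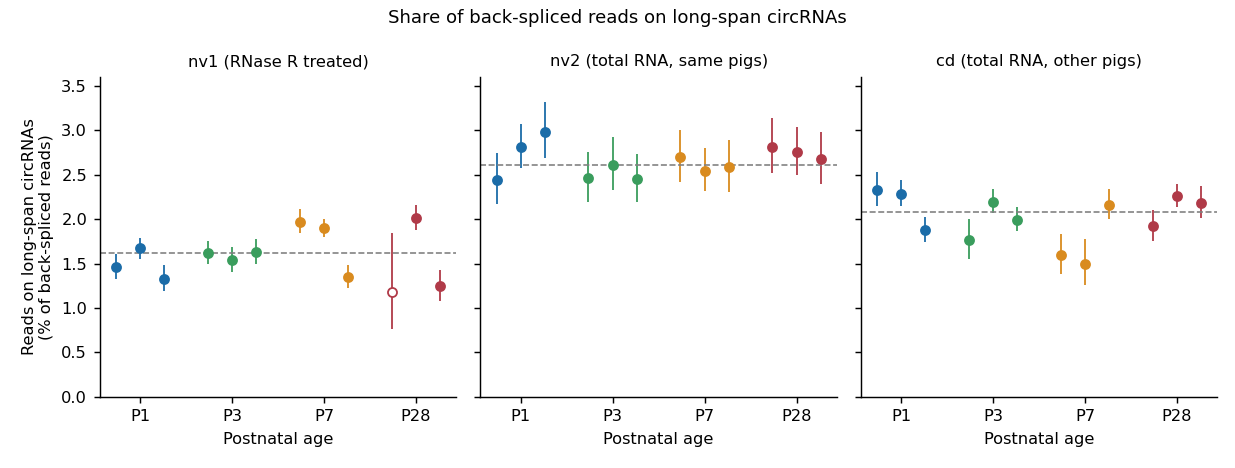
Share of back-spliced reads on long-span circRNAs in percent, by batch and age, with a point per library, its Wilson 95% interval as a vertical line, and an open point for the library left out. The nv2 libraries lie between 2.44% and 2.99%, above every nv1 library, and ages overlap within each batch apart from P3 and P28 in nv2. Dashed lines mark batch medians.

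The difference between nv1 and nv2 ran along the whole range of spans. Over all circRNAs on numbered chromosomes, the median ratio of the nv1 share to the nv2 share was 1.75 for spans up to 500 bases and 1.45 from 500 to 5000 bases. It was 0.932 from 5000 to 20000 bases, 0.672 from 20000 to 50000, 0.583 from 50000 to 100000 and 0.484 above 100000. The share was lower in nv1 in 0 of 11 pigs in the 2 shortest classes and in 11 of 11 in each of the others. By medians, long-span circRNAs thus sat at the low end of an ordered series and were not set apart from circRNAs of 20000 to 50000 bases by a step. In single pigs the order of the classes was not always kept. The classes are parts of the same total and are not independent.

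**Figure D4:**
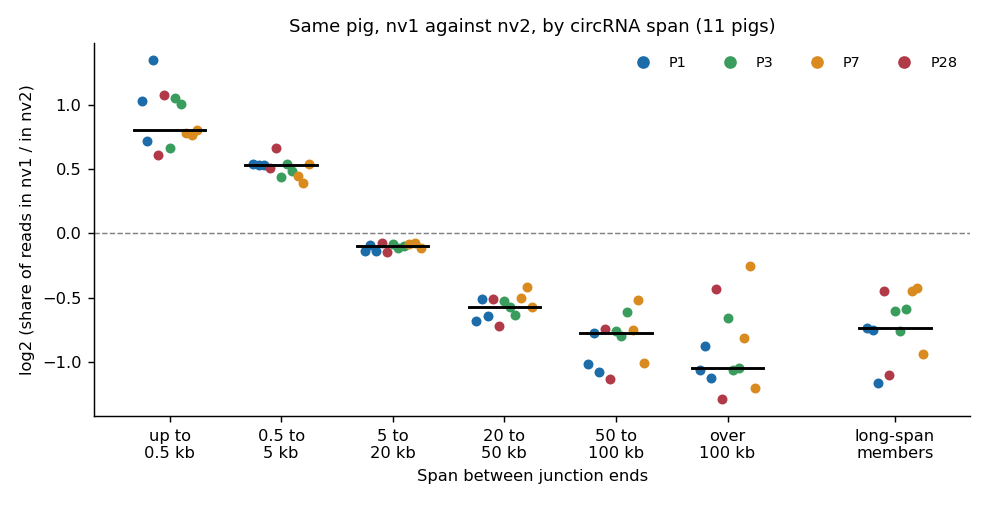
Log2 of the ratio of the nv1 share to the nv2 share of back-spliced reads, by span class in kilobases, with a point per pig colored by age and a line for the median of 11 pigs. Median ratios go from 1.75 in the class up to 500 bases to 0.484 above 100000 bases.

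By detected junctions the order of the batches was the same. Long-span junctions were 2.26% to 3.57% (median 2.89%) of the junctions detected in an nv1 library, 3.49% to 4.43% (median 3.93%) in nv2 and 2.10% to 3.76% (median 3.28%) in cd. The lowest nv2 share lay just below the highest nv1 share. Thinned to 8636 reads per library, the medians were 2.67%, 3.92% and 3.07%, which left the order as it was. At least 1 read was found for 956 members in nv1, whose libraries held more back-spliced reads, and for 872 in nv2. Found in nv2 alone were 124 members (9.52%), against 3.52% of the shorter circRNAs, and 437 (33.5%) were found in all batches, against 36.9%.

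Redetection of a member in the other library of its pig varied from 17.6% to 51.9%. The lowest share was in the pig with the shallowest nv1 library (15730 back-spliced reads), and the highest in the pig with the deepest (65478). Of the members with a read in the nv2 library of a pig, 35.3 ± 10.3% (SD, n = 11 pigs) also had a read in its nv1 library, and 33.6 ± 2.7% had a read in the nv1 library of another pig. The share was higher in the own library for 6 of 11 pigs, but own and other libraries were not compared at equal depth. For shorter circRNAs under the same library limit the values were 47.5 ± 8.4% and 45.9 ± 1.4%. The limit bounds these shares in both sets, and members had a median of 6 reads against 7 for the shorter circRNAs.

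The nv1 and nv2 counts of single circRNAs were compared in 11 pigs with edgeR's quasi-likelihood test and the pig as a block, where a call meant p of at most 0.05 and an absolute log2 fold change above 0.5. With at least 3 counts required in 10% of the libraries, 128 of the 1303 members were tested. These are the abundant members, and some passed only through the batch in which they were high, so their counts are not a measure of all members. Called were 29 (22.7%), against 31% of all 4385 circRNAs tested. Higher in nv1 were 18 (14.1%, against 25.3% of all) and lower in nv1 were 11 (8.59%, against 5.68%). The median log2 fold change, nv1 over nv2, was 0.31 for the members and 0.74 for all circRNAs. The split depended on scaling, since with DESeq2's size factors 9 were higher (7.03%, against 18.0% of all) and 14 lower (10.9%, against 8.69%), and the medians were 0.04 and 0.46. After Benjamini-Hochberg adjustment 8 members passed (6.25%, against 18% of all), 2 higher and 6 lower in nv1.

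The 5 with the smallest p were all lower in nv1. Each reached 3 counts in 4 to 7 nv2 libraries and in 0 or 1 nv1 library, so each entered the test through nv2, and the values below are a description of these members. First in order of p was chr13:155592364-155664955 on the minus strand, with 53 reads in nv2 and 19 in nv1. Its level was lowest at 98.1, median 394 and highest at 1011 CPM in nv2, here with TMM scaling, and 0, 71.4 and 409 in nv1. The groups overlapped, but nv1 was lower in 10 of 11 pigs. For chr9:138832113-138885004, 26 reads in 8 nv2 libraries stood against 2 reads in nv1, with no nv1 count above 1. At the richest locus, chr14:57630343-57759506 had 36 reads in nv2 and 7 in nv1. The remaining pair, chr7:97005366-97101356 (25 and 5 reads) and chr1:60892774-60959765 (24 and 7 reads), was lower in nv1 in 9 of 11 pigs each. The same direction did not hold for all abundant members. In CPM, nv2 exceeded nv1 in 4 of the 10 members with the most reads, and nv1 exceeded nv2 in 6. Among the 145 members with 30 or more reads, nv2 exceeded nv1 in 80 and nv1 exceeded nv2 in 65, and among all members the numbers were 653 and 489.

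Whether the long-span share changed after birth was examined within batches. In nv2, the shares were 2.44%, 2.81% and 2.99% at P1, 2.46%, 2.61% and 2.45% at P3, 2.696%, 2.55% and 2.58% at P7, and 2.75% and 2.68% at P28. In nv1, they were 1.46%, 1.67% and 1.33% at P1, 1.62%, 1.54% and 1.63% at P3, 1.97%, 1.90% and 1.35% at P7, and 2.02% and 1.25% at P28. In cd, they were 1.88% to 2.33% at P1, 1.76% to 2.20% at P3, 1.49% to 2.16% at P7 and 1.92% to 2.26% at P28. In each batch the ages overlapped, apart from P3 and P28 in nv2, and the age with the highest mean was P1 in nv2 and cd and P7 in nv1. Depth also differed by age. P7 libraries held the most back-spliced reads on average in nv1 (45364) and the fewest in cd (16123). In cd, P7 also had the lowest mean share (1.75%). Whether the share follows depth was not tested. The 5 cd libraries with few junctions at a count of 1 had shares of 2.00% to 2.26%, and the other 7 had 1.49% to 2.33%. With the libraries of a pig summed, the mean share was 2.01 ± 0.25% at P1, 1.91 ± 0.16% at P3, 1.85 ± 0.29% at P7 (SD, n = 6 each) and 2.09 ± 0.18% at P28 (SD, n = 5), and the ages overlapped. At least 1 read was found for 852 members at P1 (65.4%), 761 at P3 (58.4%) and 868 at P7 (66.6%). At P28, with 1 pig fewer, it was found for 669 (51.3%). Of the shorter circRNAs, here without the library limit, 70.9%, 64.4%, 71.1% and 56.7% were found from P1 to P28. In both sets the share was lowest at P28 and next lowest at P3. Back-spliced reads summed to 236378, 234224, 223451 and 177133 at these ages. Members found at every age numbered 314 (24.1%), against 29.1% of the shorter circRNAs under the same library limit.

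Single members were compared between ages over 23 pigs with edgeR's quasi-likelihood test and company as a covariate. Tested were 225 of the 1303 members, and again some passed only through the age at which they were high. Between P1 and P3, 29 were called (12.9%), against 9.74% of all 6604 circRNAs tested, 1 higher at P3 (against 2.53% of all) and 28 lower (against 7.21%). Between P1 and P7, 16 were called (7.11%, against 5.78%), 4 higher (against 2.77%) and 12 lower at P7 (against 3.01%). Between P1 and P28, 26 were called (11.6%, against 12.1%), 5 higher (against 3.33%) and 21 lower at P28 (against 8.78%). P1 against the mean of the later ages gave 28 (against 11.6%), with 0 higher (against 2%) and 28 lower (against 9.63%). These comparisons share the P1 pigs, and without cd pig 5 of P1 the counts were 17 at P3 (7.98%, against 8.43% of all), 9 at P7 (4.23%, against 5.29%) and 18 for all later ages (8.45%, against 9.76%). At P3 the count was also 18 without cd pig 5 of P3 (8.14%, against 7.73%), 19 without cd pig 6 of P3 (8.72%, against 8.08%) and 18 without Novogene pig 2 of P28 (8.91%, against 8.85%). Without the 5 cd libraries with few junctions at a count of 1, more members passed the filter. The counts were then 20 (6.601% of those tested, against 5.91% of all circRNAs), 19 (6.27%, against 6.35%), 25 (8.25%, against 7.32%) and 30 (9.90%, against 8.9995%).

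No test was made of the members' shares against those of all circRNAs. At P3 and P28 the calls of all circRNAs were mostly lower later, but at P7 they were 183 higher and 199 lower, and with DESeq2's size factors 218 higher and 170 lower. In Novogene pigs alone, the calls of all circRNAs were 205 higher (2.98%) and 205 lower (2.98%) at P3, and 276 (4.02%) and 174 (2.53%) at P7. Those of the members were 6 (2.299%) and 10 (3.83%) at P3, and 4 (1.53%) and 7 (2.68%) at P7. The median log2 fold change of the members was −0.59 at P3, −0.32 at P7 and −0.29 at P28 relative to P1, against −0.40, −0.18 and −0.32 for all circRNAs. With DESeq2's size factors these became −0.41, −0.26 and −0.14 for the members and −0.22, −0.07 and −0.20 for all. The members' medians were −0.11, 0.13 and 0.14 in Novogene pigs alone and −1.14, −0.84 and −0.59 in cd pigs alone, so the direction at P7 and P28 was not the same in the companies. For all circRNAs they were −0.02, 0.11 and −0.16 in Novogene pigs and −0.61, −0.48 and −0.33 in cd pigs. No member passed Benjamini-Hochberg adjustment of the edgeR p-values in any of the 4 comparisons, against 0%, 0%, 0.0606% and 0.0303% of all circRNAs, whereas 29, 16, 26 and 28 had an unadjusted p under 0.05 and DESeq2's test made 9, 5, 7 and 9 calls by the unadjusted rule. DESeq2's calls were 4%, 2.22%, 3.11% and 4% of the members tested, against 4.497%, 2.44%, 5.57% and 4.98% of all circRNAs. In Novogene pigs alone, 1 member passed edgeR's adjustment at P28 (0.383%, against 0.306% of all circRNAs). The fitted dispersion over all circRNAs was 1.10 between pigs, and 0.245 between nv1 and nv2 within pigs.

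**Figure D5:**
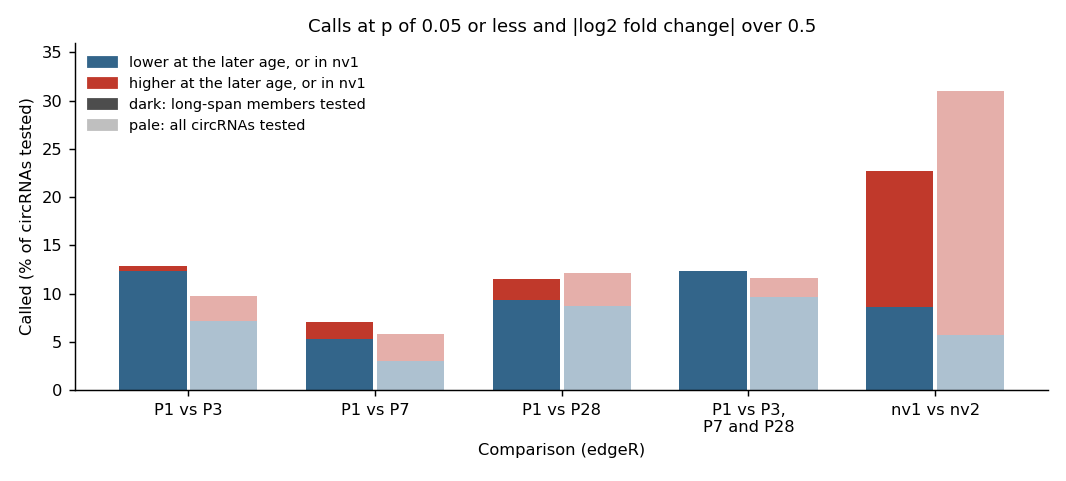
Percentage of tested circRNAs called by edgeR in each comparison, for the 225 long-span circRNAs tested by age or 128 tested between nv1 and nv2 (dark) and for all circRNAs tested (pale), split by direction. Members called make up 7.11% to 12.9% of those tested in the age comparisons, against 5.78% to 12.1% of all circRNAs.

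The member with the smallest p between P1 and P3 was chr8:71895224-71946859 on the plus strand. Its counts at P1 were 2, 5, 4, 5, 7 and 6, and at P3 they were 0, 0, 1, 0, 0 and 0. The groups did not overlap, and the ratio of P1 to P3 was 36.6 (exact counting interval 6.07 to 1496), with an edgeR adjusted p of 0.316. That interval pools the reads of each age and leaves out the spread between pigs. At P7 the counts were 13, 8, 2, 0, 3 and 0, and at P28 they were 6, 5, 6, 12 and 0. Counts of 5 or more thus occurred at P1, P7 and P28, and 3 of the 6 P7 pigs and 1 P28 pig had 2 or fewer. Of the 3 cd pigs at P3, 2 are among those with few junctions at a count of 1.

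In the comparison of P28 with P1, the smallest p belonged to chr3:4820088-4881241 on the minus strand. Its counts were 5, 25, 4, 0, 2 and 1 at P1, 2, 3, 6, 2, 0 and 0 at P3 and 2, 7, 10, 0, 0 and 2 at P7. All 5 P28 pigs in the test were at 0 (edgeR adjusted p = 0.268). The P28 pig left out for its shallow nv1 library had 2 reads, so no fold is given. The groups overlapped at 0, and 25 of the 37 reads at P1 came from 1 Novogene pig. Its counts were mostly from Novogene pigs at every age before P28.

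In other members a lower level after P1 was seen in part of the pigs. At chr9:77414304-77469954, P1 had 3, 6, 4, 1, 12 and 12 reads, and P28 had 5, 0, 0, 0 and 0 (log2 fold change −3.59, SE 1.21, edgeR adjusted p = 0.268). At P3 and P7 the Novogene pigs had 3 to 20 reads and the cd pigs 0 to 2. In Novogene pigs alone the log2 fold change between P1 and P28 was −0.66 and the call was lost, and with the replicate number as a block it was −0.82. For chr10:58798084-58861115, the count was 39 reads in 6 P1 pigs and 32 in 17 later pigs (log2 fold change −2.49, SE 0.82, edgeR adjusted p = 0.226), and the ranges overlapped. Without the cd pig that held 15 of the 39 reads, the log2 fold change was −1.50 and the call was lost. The single member among those with the smallest p that was higher later, chr11:14714357-14846554, had 3, 3 and 4 reads in 3 of 6 P7 pigs and 0 in every pig of the other ages. It entered the test through these 3 pigs alone, so its counts are given as a description.

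The other members with the smallest p rested on similar numbers. Some of them, such as chr1:229214111-229296319 with 3 or more counts in 4 P1 pigs, entered the test through P1, so counts alone are given as a description. Against P3, chr4:41114626-41203285 and chr8:113000637-113071813 each had 12 reads at P1 and 0 at P3. Against P7, chr9:88680717-88732539 (9 reads) and chr1:229214111-229296319 (13 reads) were at 0 at P7, and 5 of the 9 reads of the former were in 1 cd pig. Against P28, chr3:120066343-120141921 had 16 reads at P1, of which 14 were in 1 cd pig, and 0 at P28. Against all later ages, chr5:50724810-50806131 had 10 reads in 6 P1 pigs and 5 in 17 later pigs, and chr6:153813300-153873880 had 10 and 6. None of these passed adjustment, and in each the pigs of the compared ages overlapped at 0.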

How the data were processed

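Per the submitters' processing notes and the study's methods, STAR 2.7.9a placed reads on Sscrofa10.2 and CIRCexplorer2 called the junctions. The authors deposited a table of raw back-spliced read counts for each batch. Removal of duplicate reads is not given in the sources used here. The 3 count tables were joined on chromosome, start, end and strand. The cd columns are numbered differently from the sample labels and were therefore assigned to an age only. No pair of libraries was identical (0 pairs).

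For age comparisons both Novogene libraries of an animal were added together, which left 23 pigs. Every circRNA that reached 3 counts in 10% or more of the pigs or libraries was fitted together in edgeR 4.0.16 (R 4.3.3) with TMM, and p-values were adjusted over all of them. The same replicate numbers at Novogene did not pair pigs of different ages (correlation of deviations −0.0202 to 0.0191 over 15 pairs), while nv1 and nv2 share animals by design. Fits were tested on simulated data. Alternatives used DESeq2 1.42.0, other filters and subsets of libraries. The gene table of the cd libraries holds deposited counts and served only for the tissue check. The deposited miRNA table was not used here.

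The members and lists were chosen with earlier results of these data known. Members named are the 10 with the most reads, the longest, those nearest to the limits of the rule, the main members of the 3 richest loci, and for each comparison up to 5 that passed adjustment or else the 3 called with the smallest p. P-values measure the spread between these pigs.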

Additional observations from a re-analysis of the deposited data

Results flagged for a closer look

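In 34 groups of 5 or 6 pigs examined, for the members named in age comparisons and for the summed share of each age, 7 had a highest pig set apart from the rest of its group by Dixon's test, which flags about 1 group in 20 by chance and assumes values less discrete than these counts. At P1 these were 700.5 CPM at chr3:120066343-120141921, 685 at chr3:4820088-4881241 and 250 at chr9:88680717-88732539. At P3 they were 266 at chr10:58798084-58861115, 133 at chr5:50724810-50806131 and 35.1 at chr8:71895224-71946859, the last from 1 read. At P28 it was 161 at chr9:77414304-77469954, where the other 4 pigs had no read.

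A difference in the age effect between Novogene and cd pigs was tested as an interaction for 225 members in 3 age comparisons. Of 675 tests, 0 had an edgeR adjusted p under 0.05, 72 had an unadjusted p under 0.05 (10.7%, against 8.99% of 19812 tests over all circRNAs, of which 12 passed adjustment), and the smallest adjusted p was 0.288.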

How the results depend on the processing

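The median stayed lower in nv1 than in nv2 under every limit tried for the members. Pig by pig, the share of detected junctions was lower in nv1 in 9 of 11 pigs for spans over 100000 bases, in 10 of 11 with at least 10 reads and in 11 of 11 in the other settings, and the share of reads in 11 of 11 throughout. With spans over 100000 bases, the median share of reads was 0.345% in nv1, 0.644% in nv2 and 0.449% in cd, and the mean of nv1 minus nv2 was −0.256 percentage points. With at least 10 reads they were 1.23%, 1.69%, 1.66% and −0.551, and with no limit on libraries 2.66%, 4.63%, 3.51% and −1.90. With X and Y included the nv2 share was 2.78%. For detected junctions the values over 100000 bases were 0.738%, 0.997%, 0.773% and −0.221, with at least 10 reads 2.02%, 2.55%, 2.33% and −0.490, and with no limit on libraries 3.30%, 4.66% and 3.88% for the batches.

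Counts of called members depended on the fit, and the cause was not tested. For P3, P7, P28 and all later ages against P1, and for nv1 against nv2, DESeq2's test called 9, 5, 7, 9 and 16, no filter on low counts 56, 36, 55, 166 and 52, and a filter at 25% 11, 4, 10, 10 and 13. With no filter, 1294 members were tested by age (4.33%, 2.78%, 4.25% and 12.8% called, against 2.65%, 1.53%, 2.76% and 7.27% of all circRNAs) and 1142 between nv1 and nv2 (4.55%, against 4.66%). With the filter at 25%, 106 were tested by age (10.4%, 3.77%, 9.43% and 9.43%, against 6.11%, 3.63%, 8.26% and 7.54%) and 49 between nv1 and nv2 (26.5%, against 38.7%). Adjusted p-values gave 0, 0, 0, 0 and 8. The cd pigs alone gave 8, 2, 7 and 17 for the ages (4.97%, 1.24%, 4.35% and 10.6% of 161 members, against 5.82%, 2.17%, 3.27% and 9.63% of all). At P3 and P28, Novogene pigs alone gave 16 and 11 (6.13% and 4.21%, against 5.97% and 6.90%), libraries without RNase R 17 and 14 (14.7% and 12.1%, against 10.17% and 9.91%), and only the ages compared 15 and 17 (7.43% and 7.98%, against 7.25% and 9.98%). At a single age, nv1 against nv2 gave 6, 5, 4 and 1 from P1 to P28 (2.90%, 2.29%, 1.28% and 0.602%, against 6.66%, 6.28%, 5.10% and 4.85%). Leaving out a pig at a time gave 17 to 36 at P3 (7.98% and 16.4% of members tested, against 8.43% and 10.6% of all). At P7 it gave 9 to 24 (4.23% and 10.9%, against 5.29% and 6.44%), and at P28 20 to 35 (9.26% and 17.3%, against 11.6% and 15.1%). For all later ages it gave 18 to 37 (8.45% and 16.8%, against 9.76% and 12.8%). For nv1 against nv2 it gave 28 to 39 (14.3% and 18.8%, against 22.1% and 24.2%). There 184 to 209 members were tested, against 128 in the main fit. Without cd pig 5 of P1 the counts were 17 at P3, 9 at P7 and 18 for all later ages, and P3 gave 18 without Novogene pig 2 of P28, 18 without cd pig 5 of P3 and 19 without cd pig 6 of P3. Without the 5 cd libraries with few junctions at a count of 1, an alternative chosen after seeing the data, the age counts were 20, 19, 25 and 30.

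With the replicate number as a block in the Novogene pigs, 15, 5, 7 and 9 members were called for the ages (5.75%, 1.92%, 2.68% and 3.45%, against 4.19%, 4.497%, 5.40% and 5.18% of all). These numbers do not pair pigs. Without the pig block, nv1 against nv2 gave 33 (25.8%, against 34.2%).

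Of the 17 results for members named in a comparison, 15 lost their call in 1 to 4 of the alternatives in which they were tested, and 0 changed direction there. Many were at 0 in the compared group or entered the test through the group where they were high. Their direction could hardly change, so these numbers are a description and no support. Up to 8 alternatives did not test a given member. The log2 fold change nearest to no change was −0.66, for chr9:77414304-77469954 in Novogene pigs alone. At chr3:4820088-4881241, the call held in the 32 alternatives that tested it and 2 did not test it. Its adjusted p, from edgeR or from DESeq2's test, ranged from 0.0334 to 0.829. The filter on low counts kept 225 of 1303 members for the age tests, and at a median of 6 reads per member single circRNAs are measured with low precision.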
